A study of Mus musculus with 9 samples.

Results

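Axon guidance genes were examined in primary mouse microglia that had engulfed apoptotic cells, on 9 one-color arrays. The members are the genes of the semaphorin, plexin, neuropilin, ephrin, Eph receptor, netrin, Slit, Robo and Unc5 families, chosen by gene name. The names match 71 genes on the array, and 56 of them passed the scanner's test for a signal well above background on 1 or more of the 9 arrays, as did 24102 genes in all. Of the 56, 30 encode ligands, 24 encode receptors, and 2 match by name alone, Unc50 and the antisense transcript Plxna4os1. The 56 genes were measured by 66 probes, and each is given by its brightest one.

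Control microglia (n = 3 arrays, time 0 h) were naive, and the fed groups had been given apoptotic cells of the human neuroblastoma line SH-SY5Y over 3 h (Ph3h, n = 3) or 24 h (Ph24h, n = 3). All 3 groups came from fms-EGFP pups of postnatal day 0 to 1, in which the Csf1r promoter drives EGFP in microglia and other myeloid cells. Brains without meninges, olfactory bulb and cerebellum were pooled at 2 per flask and grown for about 14 d with 5 ng/ml GM-CSF, and the microglia were shaken off and rested for at least 24 h. SH-SY5Y cells had been labeled with 5 μM CM-DiI and treated with 3 μM staurosporine for 4 h, and their floating fraction was added at about 1 apoptotic cell per microglia. No unfed culture was kept for 3 or 24 h, so feeding and time in culture cannot be told apart. The series description calls the 3 replicates independent experiments. In bulk RNA, fewer cells of a type and less RNA per cell cannot be told apart either.

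Guidance cues steer growing axons by attraction or repulsion, and most act as pairs. Semaphorins bind plexins, with neuropilins as co-receptors for the secreted class 3 members. Ephrins are bound to the cell surface and meet Eph receptor tyrosine kinases on the neighboring cell, Slits bind Robo receptors, and netrins bind Dcc, neogenin and Unc5 receptors. These receptors act on small GTPases and the actin cytoskeleton. Several pairs are also known in immune cells, such as Sema4d with Cd72 and plexin-B receptors, Sema7a with plexin-C1, and Nrp1 in macrophages.

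The results below turn most on 6 genes, Slit3, Robo1, Efnb2, Sema3f, Plxnc1 and Unc5b, and the first 30 of the 60 bases of their probes are shown, since the measurements rest on them. All letters are in lower case. The files place the probes on mm9 at chr11:35521559-35521618 (Slit3, plus strand), chr16:73046190-73046249 (Robo1, plus), chr8:8618177-8618236 (Efnb2, minus), chr9:107583833-107583892 (Sema3f, minus), chr10:94253879-94253938 (Plxnc1, minus) and chr10:60225398-60225457 (Unc5b, minus). For Efnb2 and Plxnc1, which had a second probe, that probe is shown as well, at chr8:8620426-8620485 and chr10:94257387-94257446, because the Efnb2 probes gave different values and the Plxnc1 probes gave like ones. Exon or intron was not assigned, as no annotation of mm9 was used here.
Slit3: aatatgtcttccagtgcacggacggctcct
Robo1: cagttctaagggaacaatccacgtgattaa
Efnb2: gtcatcggttggctacgttttggttctatg
Efnb2, second probe: tggatctggacagttttgtagtctgtagct
Sema3f: ctacccaggccacagccactcttgggttcc
Plxnc1: ggatcccattagccaaatgcacagaatgtc
Plxnc1, second probe: atgccaaggatataccaacctacaaagagg
Unc5b: cctgttcgtccattctgtaaataacttgta

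Levels are given on the log2 scale relative to the 75th percentile of the intensities on the same array, so that 0 is that percentile. This percentile was an intensity of 355 to 472 on the control arrays, between 185 and 211 on the Ph3h arrays, and between 156 and 161 on the Ph24h arrays. An unchanged intensity therefore gains 1.05 in Ph3h and 1.38 in Ph24h over control on this scale. A gene well above background on no array of a group is called dim there, and its difference is then given as a bound ("at least"). For the bound, each array of the dim group took the gene's own level or, if higher, the lowest level called well above background on that array. Between 25643 and 29313 probes were well above background per array. The threshold for a call was 0.05 in limma, after adjustment over all 24102 genes, and the number of arrays limits the precision.

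All 10 microglial markers were well above background on every control array, and their summed level was 1152 to 1206 times the percentile in control, between 1474 and 1629 in Ph3h, and between 967 and 1015 in Ph24h. Of the 10, 4 were higher and 3 lower at 3 h, and 2 were higher and 7 lower at 24 h. Over all genes, 27.9% were higher and 25.9% lower at 3 h, and 29.9% and 33.2% at 24 h. At 24 h P2ry12 was dim and Cx3cr1 fell by 4.56. Of 25 markers of SH-SY5Y cells, 20 were tested, and their summed level was 4.55 to 5.14 times the percentile in control, between 206 and 227 in Ph3h, and between 301 and 327 in Ph24h. On every control array 8 of the 20 were well above background. Hand2, Gata2, Isl1, Chga, Scg2, Prph, Dlk1 and Ddc were among those at background in control. At 3 h 15 of the 20 rose and 2 fell, and at 24 h 16 rose and 1 fell, beside the shares of all genes just given. Of the 7 general neuronal markers tested, 5 rose and 0 fell at each time, with summed levels of 6.53 to 7.75 in control, between 33.7 and 39.6 in Ph3h, and between 36.4 and 37.4 in Ph24h. The summed levels of both lists were thus higher in the fed groups than in control, where feeding and time in culture cannot be told apart. The part of SH-SY5Y RNA in each rise described below was not tested here, nor was the binding of human RNA to the mouse probes. The paper reported low homology of most array probes to the human transcriptome. In apoptotic SH-SY5Y cells it reported degraded RNA and no nuclear fluorouridine labeling. Markers of astrocytes summed to between 15.0 and 19.3 on all arrays and those of endothelium to between 8.17 and 15.3. Fibroblast and pericyte markers summed to between 0.850 and 1.77. The oligodendrocyte list summed to 261 to 321 in control, between 414 and 471 in Ph3h, and between 207 and 240 in Ph24h.

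By 24 h, 5 of the 6 class 3 semaphorins tested were called higher and 7 of the 8 plexins lower. The members as a whole moved in both directions. Of these 5 semaphorins, Sema3a was kept through 1 Ph24h array alone, and the unscaled intensities of Sema3e overlapped control. At 3 h, 18 of the 56 members were higher than control and 11 were lower, against 27.9% and 25.9% of all genes. At 24 h, 23 were higher and 17 lower, against 29.9% and 33.2% of all genes. Between the fed groups, 18 were higher and 16 lower at 24 h than at 3 h, against 20.3% and 24.0% of all genes. Over the 3 groups together, 44 of 56 members differed by the moderated F test, against 70.5% of all genes. Since the scale moves between groups, the members called higher were also read on unscaled intensities. Of the 18 at 3 h, 8 lay above all control arrays, 6 overlapped them (Efna5, Epha4, Ephb2, Plxnb3, Sema6a and Sema7a) and 4 lay below (Ephb6, Plxna1, Sema4b and Slit1). Of the 23 at 24 h, 11 lay above, 7 overlapped (Efna2, Efna5, Epha1, Ephb2, Ntn5, Sema3e and Sema6a) and 5 lay below (Efna3, Ephb3, Plxna1, Sema4c and Sema6d). All members called lower had unscaled intensities below those of all control arrays. As the percentile itself was lower on the fed arrays, a fall after scaling is larger before it, so this is no separate check. The members' median difference was 0.26 at 3 h and 0.28 at 24 h, beside 0.07 and 0.01 over all genes, and with quantile normalization it was -0.02 and -0.06, beside -0.07 and -0.14 over all genes. Changes of at least 1 on the log2 scale were called for 12 members upward and 6 downward at 3 h, and for 18 and 12 at 24 h. Over all genes the corresponding shares were 11.1% and 7.34% at 3 h and 16.2% and 8.18% at 24 h.

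By role, 12 of the 30 ligands were higher and 5 lower at 3 h, and 16 were higher and 5 lower at 24 h. Of the 24 receptors, 6 were higher and 5 lower at 3 h, while 7 were higher and 11 lower at 24 h. Over all genes, 27.9% were higher and 25.9% lower at 3 h, and 29.9% and 33.2% at 24 h. The receptors' shares were 25% and 20.8% at 3 h, and 29.2% and 45.8% at 24 h. Those of the ligands were 40% and 16.7% at 3 h, and 53.3% and 16.7% at 24 h. Among the ligands called higher at 24 h, Slit3, Sema4g, Sema6a, Sema3a and Ntn5 passed the filter through fed arrays alone. Among the receptors called higher, Robo1 and Epha4 did so too. Before scaling, the ligands Efna2, Efna5, Ntn5, Sema3e and Sema6a overlapped control at 24 h, and Efna3, Sema4c and Sema6d lay below it. The receptors Epha1 and Ephb2 overlapped control, and Ephb3 and Plxna1 lay below it. The median difference of the ligands was 0.44 at 3 h and 0.45 at 24 h, and that of the receptors was 0.01 at both times but -0.18 and -0.29 with quantile normalization. Under median scaling the ligands' median at 24 h was -0.06, with 13 higher and 9 lower.

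**Figure D1:**
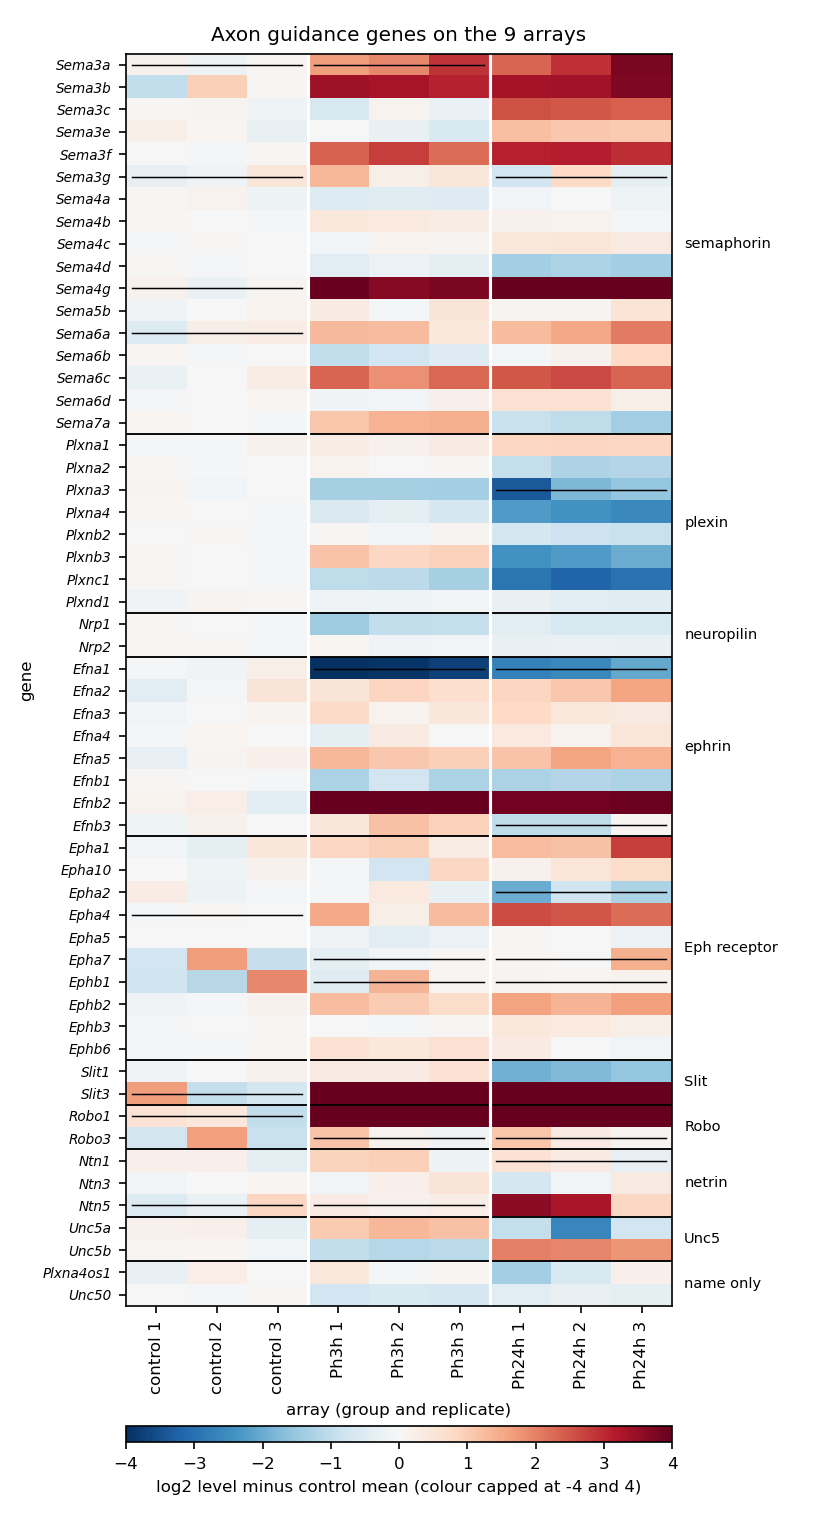
Level of each of the 56 members on each of the 9 arrays as a log2 difference from the gene's control mean (color, capped at -4 and 4), with genes grouped by family and arrays by group. A black line through 3 cells marks a group in which the gene was dim, such as Slit3 and Robo1 in control. Slit3, Robo1, Efnb2 and Sema4g are at or near the red end on all 6 fed arrays, and 7 of the 8 plexins are blue in Ph24h.

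Slit3, a secreted ligand of Robo receptors, had the largest difference from control among the members at both times. Its log2 levels were -4.45, -7.06 and -6.81 in control, 1.91, 1.84 and 1.81 in Ph3h, and 4.13, 4.07 and 4.00 in Ph24h. Before scaling, these are intensities of 21.6, 3.09 and 3.17 in control, 792, 664 and 696 in Ph3h and 2747, 2616 and 2590 in Ph24h. Every fed array lay above every control array, and every Ph24h array above every Ph3h array. As Slit3 was dim in control, the rise was at least 103-fold in Ph3h (adjusted p = 3.63e-05). In Ph24h it was at least 479-fold (adjusted p = 8.37e-06). The step from 3 h to 24 h was 2.21 ± 0.62 (SE; adjusted p = 0.0226) and lost its call when any 1 of the 6 fed arrays was left out (adjusted p up to 0.0594) and on slide 1 alone (adjusted p = 0.133), with a step of 1.95 to 2.32 over all alternatives. With normexp background correction the differences from control were 3.68 and 5.93.

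Robo1, a receptor for Slits, rose along with it. Its levels were -5.19, -5.35 and -6.74 in control, -1.66, -1.74 and -1.63 in Ph3h and -0.87, -1.03 and -1.22 in Ph24h. It was dim in control and above background on all 6 fed arrays, so that the rise was at least 10.4-fold in Ph3h (adjusted p = 8.33e-05). In Ph24h it was at least 16.1-fold (adjusted p = 3.02e-05). The Ph24h arrays lay above the Ph3h arrays, by 0.64 ± 0.38, without passing the test (adjusted p = 0.214). The other Slit measured, Slit1, went another way: its levels were 0.18, 0.32 and 0.50 in control, 0.70, 0.67 and 0.91 in Ph3h and -1.59, -1.43 and -1.21 in Ph24h. On the scaled values Slit1 was thus 0.43 ± 0.13 higher at 3 h (adjusted p = 0.0251). It was 1.74 ± 0.13 below control at 24 h (adjusted p = 2.07e-05). Before scaling its Ph3h intensities (294 to 373) lay below those of control (502 to 536). The 3 h call of Slit1 was lost under median scaling (0.18) and without control replicate 1, control replicate 2 or Ph3h replicate 3 (highest adjusted p 0.0821 among these 3). Slit2, Robo2 and Robo4 were dim on all 9 arrays. Robo3 was above background on 1 control array only.

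Ephrins, the membrane-bound ligands of Eph receptors, moved apart from each other. Efnb2, an ephrin-B with a transmembrane domain, had levels of -3.53, -3.40 and -4.11 in control, 1.96, 2.08 and 1.74 in Ph3h and 0.17, 0.17 and 0.24 in Ph24h. It rose 48.7-fold at 3 h (log2 difference 5.61 ± 0.18, adjusted p = 6.23e-07), was 14.6-fold above control at 24 h (3.87 ± 0.18, adjusted p = 2.45e-06), and fell by 1.73 from 3 h to 24 h (adjusted p = 0.000211). The second Efnb2 probe, whose start lies 2249 bases away on the same chromosome, was above background on 1 control array and on no fed array. Its differences were 0.86 ± 0.29 in Ph3h (adjusted p = 0.0415 over all probes) and 0.37 ± 0.29 in Ph24h (adjusted p = 0.305), so the size of the rise rests on the brighter probe. With the mean over both probes the differences were 3.23 and 2.12, and with normexp correction of the brighter probe 3.31 and 1.93.

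Efnb1, another ephrin-B, moved down. Its levels were 0.00, -0.02 and -0.09 in control, -1.28, -0.79 and -1.32 in Ph3h and -1.31, -1.22 and -1.30 in Ph24h. It fell by 1.10 ± 0.14 at 3 h (adjusted p = 0.000372) and by 1.24 ± 0.14 at 24 h (adjusted p = 0.000148), with no overlap with control. Efnb3, the remaining ephrin-B, was above background on 2 of the 9 arrays. It was not called against control (adjusted p = 0.0571 in Ph3h and 0.114 in Ph24h).

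Efna1, an ephrin-A held in the membrane by a GPI anchor, was measured in control alone. Its levels were -2.24, -2.31 and -1.94 in control, and it was dim on all 6 fed arrays, with intensities of 2.72 to 3.36 in Ph3h and 5.37 to 8.82 in Ph24h against 83.4 to 100 in control. The fall was at least 4.11-fold in Ph3h (adjusted p = 4.33e-06). In Ph24h it was at least 3.42-fold (adjusted p = 3.03e-05). Efna5 was called higher on the scaled values, from -4.08, -3.65 and -3.54 in control to -2.44, -2.67 and -2.80 in Ph3h and -2.61, -2.18 and -2.36 in Ph24h. Its differences were 1.13 ± 0.18 and 1.38 ± 0.18 (adjusted p = 0.00126 and 0.000352). Before scaling its intensities overlapped, at 27.9 to 32.8 in control, between 28.5 and 39.0 in Ph3h, and between 25.8 and 34.6 in Ph24h. Efna2 was called at 24 h only (1.17 ± 0.28, adjusted p = 0.00781), with levels of -4.39 to -3.42 in control and -3.10 to -2.37 in Ph24h, and its 3 h difference was 0.68 (adjusted p = 0.0745). On the scaled values Efna3 rose by 0.53 at 24 h (adjusted p = 0.032), where its unscaled intensities lay below those of control. Efna4 was not called at either time. In all, 2 of the 8 ephrins were called higher and 2 lower at 3 h, against 27.9% and 25.9% of all genes. At 24 h, 4 were called higher and 2 lower, against 29.9% and 33.2% of all genes.

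Of the 10 Eph receptors tested, 3 were called higher and 0 lower at 3 h, against 27.9% and 25.9% of all genes. At 24 h, 4 were called higher and 1 lower, against 29.9% and 33.2% of all genes. Ephb2, a receptor for ephrin-Bs, had levels of -1.64, -1.54 and -1.32 in control, -0.27, -0.49 and -0.77 in Ph3h and 0.11, -0.15 and 0.14 in Ph24h. On the scaled values it rose by 0.99 ± 0.15 at 3 h (adjusted p = 0.00108) and by 1.53 ± 0.15 at 24 h (adjusted p = 8.91e-05), and its 3 groups did not overlap. Before scaling its intensities overlapped, at 142 to 151 in control, between 117 and 175 in Ph3h, and between 141 and 177 in Ph24h. Epha4, which binds ephrins of both classes, was dim in control, with levels of -5.59, -5.52 and -5.55, and rose to -4.03, -5.33 and -4.27 in Ph3h and -2.93, -3.03 and -3.33 in Ph24h. It was at least 3.88-fold higher at 24 h (adjusted p = 0.000327). At 3 h it was above background on 1 of the 3 arrays, and its call there (at least 1.42-fold, adjusted p = 0.0278) was lost in 11 of 20 alternatives, among them the removal of any 1 control array. Epha1 was well above background on 1 control array and on all Ph24h arrays. On the scaled values it rose by 1.71 ± 0.45 at 24 h (adjusted p = 0.012), with a Ph24h range of -3.75 to -2.18. Its unscaled intensities overlapped those of control.

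Epha2 went down late. Its levels were -3.58, -4.06 and -3.95 in control, -3.95, -3.46 and -4.15 in Ph3h and -5.84, -4.67 and -5.13 in Ph24h, where it was dim, a fall of at least 1.11-fold (adjusted p = 0.00718). Its 3 h arrays overlapped those of control (difference 0.01, adjusted p = 0.982). On the scaled values Ephb3 rose by 0.35 ± 0.08 at 24 h (adjusted p = 0.00503) and Ephb6 by 0.53 ± 0.12 at 3 h (adjusted p = 0.0081). Before scaling, each lay below all control arrays at that time. Epha5, Epha7, Epha10 and Ephb1 were not called at either time, and the lowest adjusted p among them was 0.0539 (Epha5 at 3 h). Ephb4, a further receptor of ephrin-B2, was dim on all arrays.

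**Figure D2:**
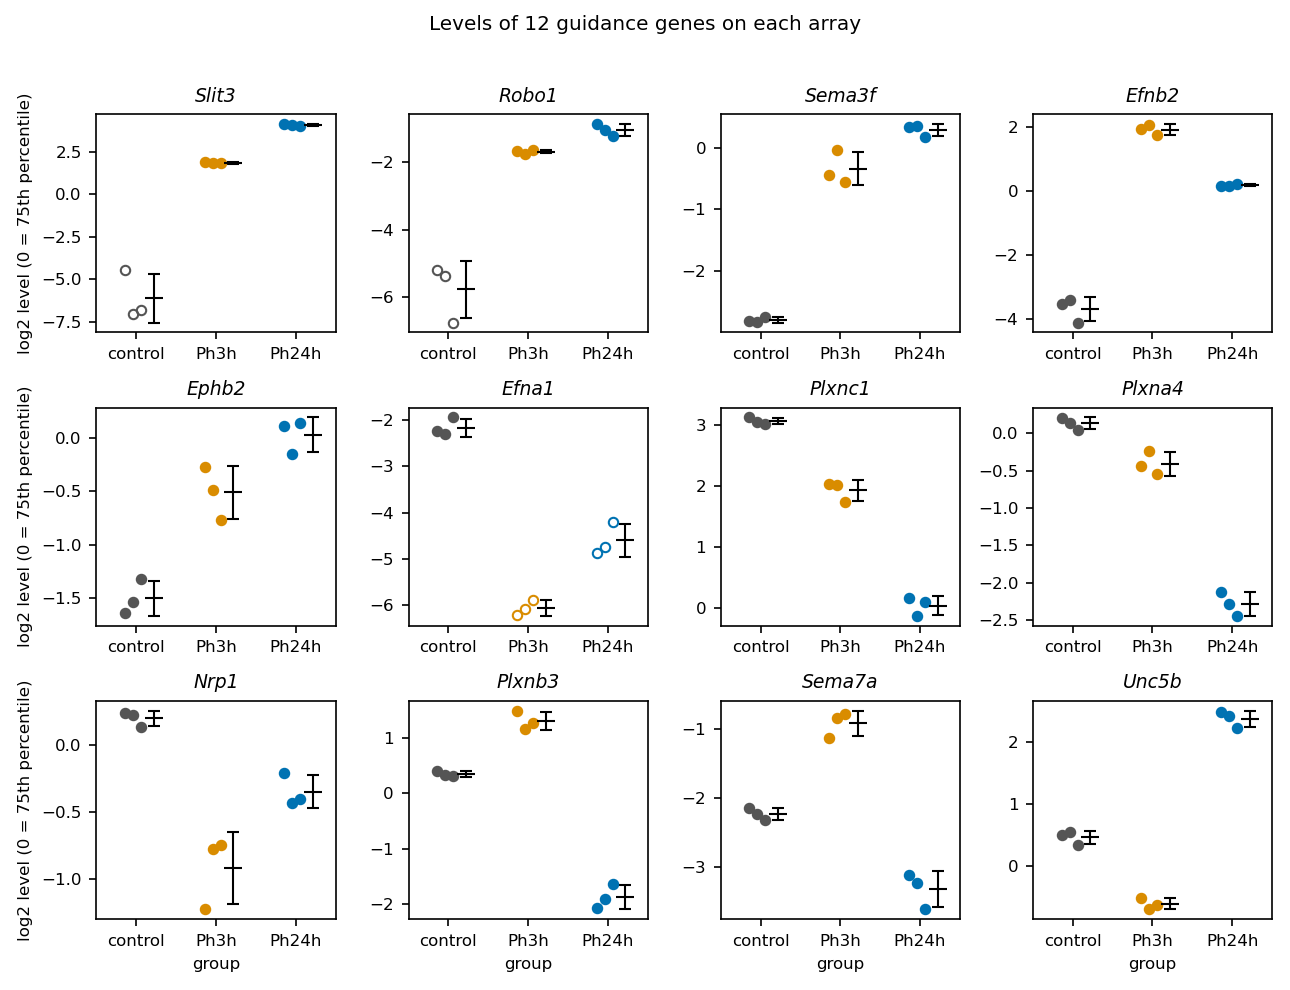
Log2 levels of 12 members on each of the 9 arrays (points, replicates 1 to 3 from left to right), with the group mean and SD beside them (bars) and 0 at the array's 75th percentile. Open points mark groups in which the gene was dim. The groups of Plxnc1, Plxna4 and Nrp1 do not overlap, and Plxnb3, Sema7a and Unc5b lie on opposite sides of control at 3 h and 24 h.

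The class 3 semaphorins, secreted ligands that act through neuropilins and class A plexins, were called only upward. Of the 6 tested, 3 were higher and 0 lower at 3 h, against 27.9% and 25.9% of all genes. At 24 h, 5 were higher and 0 lower, against 29.9% and 33.2% of all genes. The 24 h counts were the same under quantile normalization, median scaling, normexp correction and the authors' value table. At 3 h, 1 was called lower under median scaling and 2 were called higher with normexp correction. Those settings keep Sema3a, which passed the filter through 1 Ph24h array alone. With probes required above background on all 3 arrays of a group, 4 were tested and 4 were higher at 24 h. Sema3f, a ligand of Nrp2, had levels of -2.80, -2.82 and -2.74 in control, -0.44, -0.03 and -0.55 in Ph3h and 0.34, 0.35 and 0.17 in Ph24h. It rose 5.46-fold at 3 h (2.45 ± 0.13, adjusted p = 6.29e-06) and 8.40-fold at 24 h (3.07 ± 0.13, adjusted p = 1.56e-06), and its 3 groups did not overlap. With normexp correction the differences were 1.26 and 1.79.

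Sema3b, a second class 3 ligand, was above background on 1 control array and on all 6 fed arrays, with levels of -5.67, -3.72 and -4.65 in control, -1.28, -1.37 and -1.60 in Ph3h and -1.36, -1.33 and -0.93 in Ph24h. It rose by 3.26 ± 0.44 at 3 h (adjusted p = 0.000553) and 3.47 ± 0.44 at 24 h (adjusted p = 0.000312). Sema3c rose late. Its levels were -3.34, -3.27 and -3.55 in control, -4.04, -3.23 and -3.64 in Ph3h and -0.83, -0.91 and -0.98 in Ph24h, a 5.58-fold rise at 24 h (2.48 ± 0.19, adjusted p = 2.64e-05) with overlapping arrays at 3 h (-0.25, adjusted p = 0.314). Sema3e, which can bind Plxnd1 without a neuropilin, was likewise called at 24 h alone, with 1.11 ± 0.18 at 24 h (adjusted p = 0.00128) and -0.31 at 3 h (adjusted p = 0.19). Before scaling its Ph24h intensities (23.6 to 26.0) lay within those of control (20.6 to 39.5).

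Sema3a, the prototype repellent of this class, stayed near background. It was dim in control and in Ph3h and above background on 1 of the 3 Ph24h arrays, with intensities of 2.66 to 3.94 in control, between 5.03 and 11.04 in Ph3h, and between 5.85 and 16.1 in Ph24h. Its rise at 24 h was at least 1.97-fold (adjusted p = 0.000563), and no fold is given at 3 h. Sema3g was not called at either time.

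Among the 11 membrane semaphorins tested, 5 were higher and 3 lower at 3 h, against 27.9% and 25.9% of all genes. At 24 h, 5 were higher and 2 lower, against 29.9% and 33.2% of all genes. Sema4g was dim in control, with intensities of 2.83 to 4.40, and measured on all fed arrays, with 18.9 to 27.3 in Ph3h and 37.5 to 41.0 in Ph24h. The rise was at least 3.80-fold in Ph3h (adjusted p = 9.40e-07). In Ph24h it was at least 8.19-fold (adjusted p = 2.03e-07). Sema6c, a transmembrane ligand, had levels of -0.57, -0.31 and -0.01 in control, 2.03, 1.52 and 1.99 in Ph3h and 2.19, 2.35 and 2.02 in Ph24h. It rose by 2.14 ± 0.19 at 3 h (adjusted p = 6.97e-05) and 2.48 ± 0.19 at 24 h (adjusted p = 2.49e-05). Its second probe, 708 bases away, gave 0.83 ± 0.12 and 0.07 ± 0.12, so the 2 probes differ in size at 3 h and in the call at 24 h, where their mean gave 1.28. Sema6a, also transmembrane, was dim in control and above background on 1 array of each fed group. It was called higher at 24 h on the scaled values (at least 2.64-fold, adjusted p = 0.00438), while its unscaled intensities overlapped (8.46 to 12.8 in control and 9.95 to 17.9 in Ph24h). Its 3 h call (adjusted p = 0.0417) was lost in 12 of 19 alternatives.

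Sema4d, which acts on leukocytes through Cd72 and on other cells through plexin-B receptors, fell. Its levels were 4.01, 3.91 and 3.93 in control, 3.50, 3.72 and 3.59 in Ph3h and 2.58, 2.67 and 2.59 in Ph24h. The difference was -0.35 ± 0.07 at 3 h (adjusted p = 0.00482) and -1.34 ± 0.07 at 24 h (adjusted p = 4.61e-06), with no overlap between any groups. Its second probe, with a start 15155 bases away and above background on all arrays, gave 0.31 ± 0.18 and -0.21 ± 0.18 (adjusted p = 0.192 and 0.348), and with the mean over both probes the 3 h difference was -0.02 (adjusted p = 0.883) and the 24 h difference -0.77. Sema4a, a semaphorin of antigen-presenting cells, was lower at 3 h (-0.52 ± 0.10, adjusted p = 0.00276). At 24 h its arrays overlapped those of control (-0.09, adjusted p = 0.433).

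Sema7a, a GPI-anchored ligand of plexin-C1 and integrins, turned around on the scaled values. Its levels were -2.15, -2.23 and -2.33 in control, -1.13, -0.84 and -0.79 in Ph3h and -3.12, -3.24 and -3.62 in Ph24h. It was 1.32 ± 0.15 higher at 3 h (adjusted p = 0.000219) and 1.09 lower at 24 h (-1.09 ± 0.15, adjusted p = 0.000455), and 2 of the 3 Ph24h arrays were above background. Before scaling its Ph3h intensities (96.6 to 115) overlapped those of control (70.9 to 106). Sema6b was lower at 3 h (-0.76 ± 0.22, adjusted p = 0.0235), with levels of -1.17, -1.30 and -1.23 in control and -2.23, -1.99 and -1.75 in Ph3h. This call was lost without any 1 control array, Ph3h replicate 1 or Ph3h replicate 2 (highest adjusted p = 0.0758). On the scaled values Sema4b rose by 0.38 at 3 h (adjusted p = 0.00687), and Sema4c and Sema6d rose by 0.42 and 0.48 at 24 h (adjusted p = 0.00259 and 0.017). Before scaling, each lay below all control arrays at that time. Sema5b was not called.

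**Figure D3:**
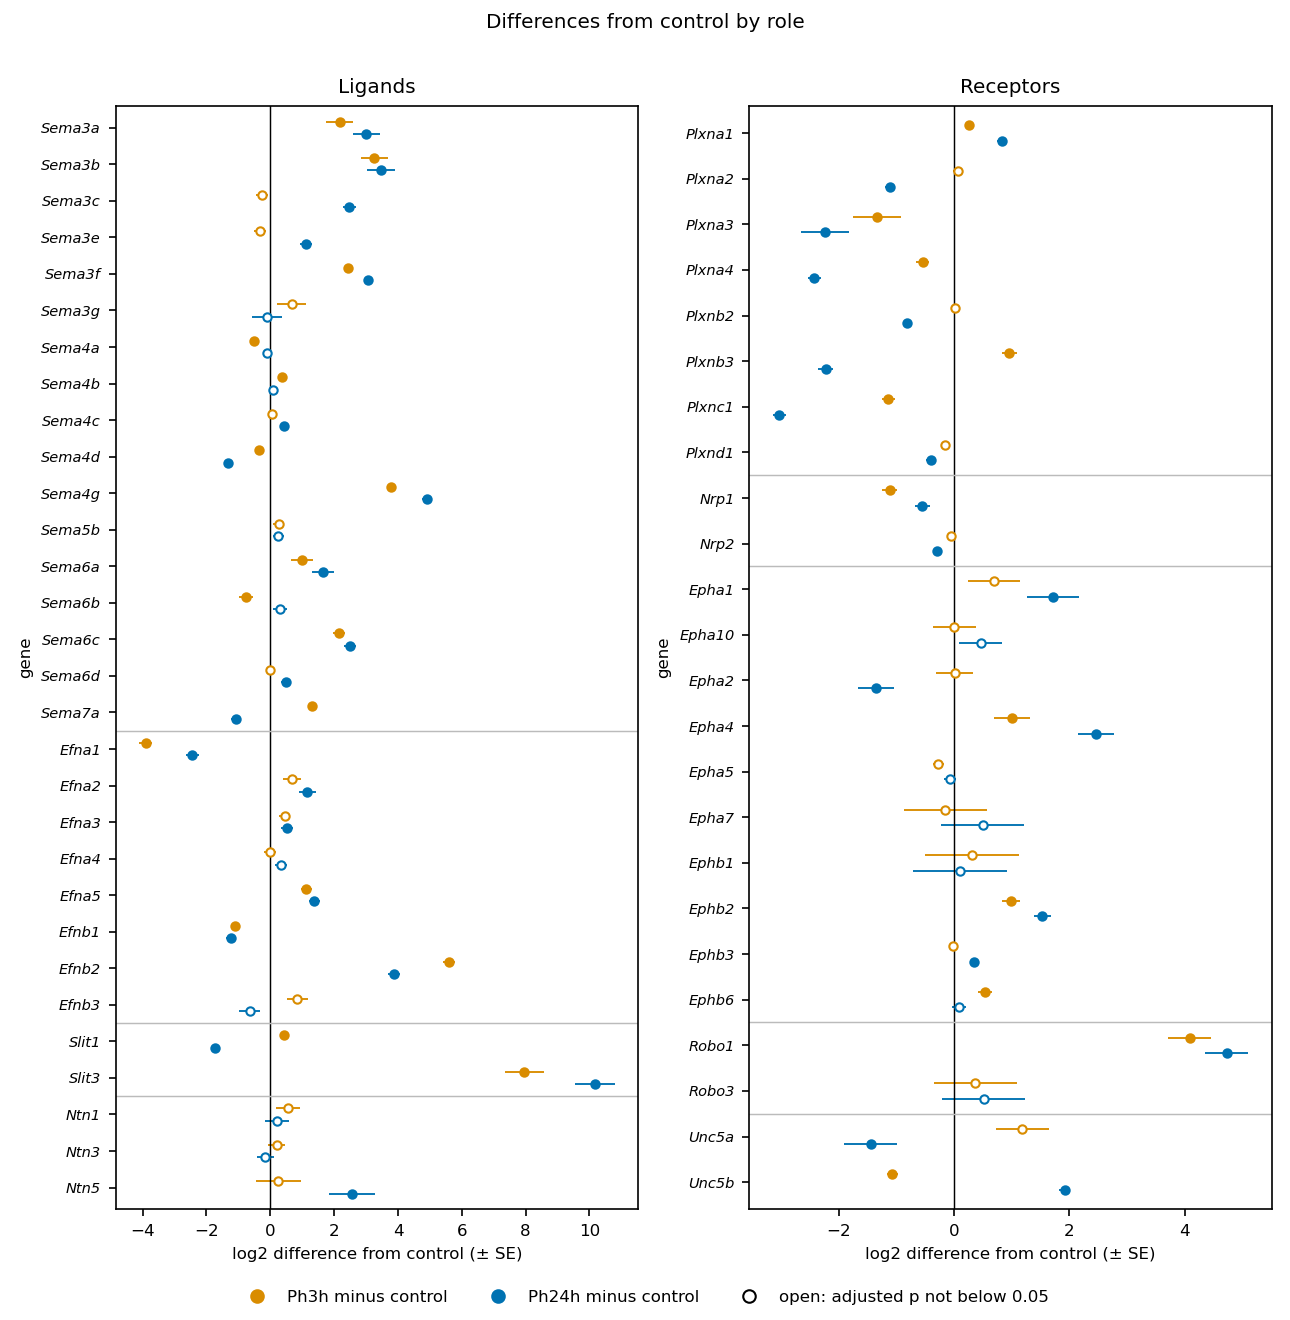
Difference from control on the log2 scale with its SE in Ph3h (orange) and Ph24h (blue) for the 30 ligands (left) and 24 receptors (right). Filled points had an adjusted p below 0.05 in limma. Slit3, Efnb2 and Sema4g lie farthest to the right among the ligands, and 7 of the 8 plexins lie to the left of 0 at 24 h.

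Most plexins, the signaling receptors of semaphorins, were lower by 24 h. At 3 h, 2 of the 8 tested were called higher and 3 lower, against 27.9% and 25.9% of all genes, and 3 were not called. At 24 h, 1 was called higher and 7 lower, against 29.9% and 33.2% of all genes. That 24 h count was the same with quantile normalization, median scaling, normexp correction and the authors' value table. Their median difference was -0.06 at 3 h and -1.67 at 24 h, beside 0.07 and 0.01 over all genes, and -0.88 at 24 h with normexp correction. Plxnc1, the receptor of Sema7a, had levels of 3.12, 3.05 and 3.01 in control, 2.03, 2.01 and 1.73 in Ph3h and 0.15, -0.13 and 0.09 in Ph24h. It was 2.20-fold lower at 3 h (-1.14 ± 0.11, adjusted p = 9.93e-05) and 8.14-fold lower at 24 h (-3.03 ± 0.11, adjusted p = 6.87e-07), with no overlap between any groups. Its second probe, 3508 bases away, gave -1.35 ± 0.11 and -2.88 ± 0.11, so both probes fell at both times (adjusted p = 5.62e-05 and 1.15e-06 for the second).

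Plxna4, a class A plexin that pairs with neuropilins, fell at both times, and further at 24 h than at 3 h (-1.88 between them, adjusted p = 1.19e-05). Its levels were 0.21, 0.14 and 0.05 in control, -0.43, -0.23 and -0.55 in Ph3h and -2.13, -2.28 and -2.44 in Ph24h, with differences of -0.54 ± 0.11 (adjusted p = 0.00472) and -2.42 ± 0.11 (adjusted p = 2.09e-06). Plxna3, of the same class, fell by 1.34 ± 0.42 at 3 h (adjusted p = 0.0302) and was dim in Ph24h, a fall of at least 3.14-fold (adjusted p = 0.00254). Its 3 h call was lost when any 1 of the control or Ph3h arrays was left out (highest adjusted p = 0.0812 among these 6 fits), while its levels there were -2.00 to -2.22 in control and -3.43 to -3.46 in Ph3h.

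Plxna2 was not called at 3 h (0.06, adjusted p = 0.581) and fell by 1.11 ± 0.09 at 24 h (adjusted p = 2.66e-05), with levels of 1.92, 1.82 and 1.89 in control and 0.94, 0.65 and 0.71 in Ph24h. A second probe carrying this name gave 0.34 ± 0.13 at 24 h (adjusted p = 0.0589), and the mean over both was -0.39. The files place that probe on chromosome 13 and the first on chromosome 1, where the gene lies. Plxna1 was the plexin called higher at 24 h on the scaled values. Its levels were 0.56, 0.54 and 0.80 in control, 0.94, 0.80 and 0.96 in Ph3h and 1.45, 1.48 and 1.45 in Ph24h, with a difference of 0.83 ± 0.08 at 24 h (adjusted p = 0.000107). At 3 h its difference of 0.27 passed the test (adjusted p = 0.0307) with overlapping arrays. Under median scaling the differences were 0.02 (adjusted p = 0.844) and 0.32 (adjusted p = 0.0117). Before scaling its intensities were 601 to 694 in control, between 321 and 406 in Ph3h, and between 430 and 441 in Ph24h. Both fed groups thus lay below control.

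The plexins of the B and D classes fell at 24 h. Plxnb2, a receptor of Sema4d and other class 4 semaphorins, had levels of 5.61, 5.63 and 5.53 in control, 5.63, 5.49 and 5.70 in Ph3h and 4.89, 4.77 and 4.69 in Ph24h. The control and Ph3h arrays overlapped (0.02, adjusted p = 0.851), and the 24 h fall was 0.81 on the log2 scale (-0.81 ± 0.08, adjusted p = 9.26e-05), or 1.31 (-1.31) under median scaling. Plxnb3 was first higher on the scaled values, with levels of 0.41, 0.33 and 0.31 in control, 1.49, 1.16 and 1.27 in Ph3h and -2.07, -1.91 and -1.64 in Ph24h. Its differences were 0.96 ± 0.13 (adjusted p = 0.00052) and -2.22 ± 0.13 (adjusted p = 6.18e-06). Before scaling its Ph3h intensities (414 to 594) overlapped those of control (440 to 628). Plxnd1 fell by 0.41 ± 0.08 at 24 h (adjusted p = 0.00361), or by 0.91 (-0.91) under median scaling. Its second probe gave -0.20 ± 0.08 (adjusted p = 0.054). Plxnb1 was dim on all arrays.

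Neuropilins, the co-receptors of class 3 semaphorins, were both lower at 24 h. Nrp1 had levels of 0.24, 0.23 and 0.14 in control, -1.22, -0.77 and -0.75 in Ph3h and -0.21, -0.43 and -0.40 in Ph24h. It fell by 1.12 ± 0.14 at 3 h (adjusted p = 0.000339) and by 0.55 ± 0.14 at 24 h (adjusted p = 0.00931), so that the Ph24h arrays lay between those of control and Ph3h. Its 24 h difference was -1.06 under median scaling. Nrp2 had levels of 6.29, 6.27 and 6.14 in control and 5.93, 5.97 and 5.93 in Ph24h (-0.29 ± 0.08, adjusted p = 0.0121). Its second probe, 21831 bases away, fell at 3 h instead (-0.33 ± 0.06, adjusted p = 0.00338) and gave 0.03 at 24 h (adjusted p = 0.671), and with the mean over both probes the 24 h difference was -0.13 (adjusted p = 0.104).

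**Figure D4:**
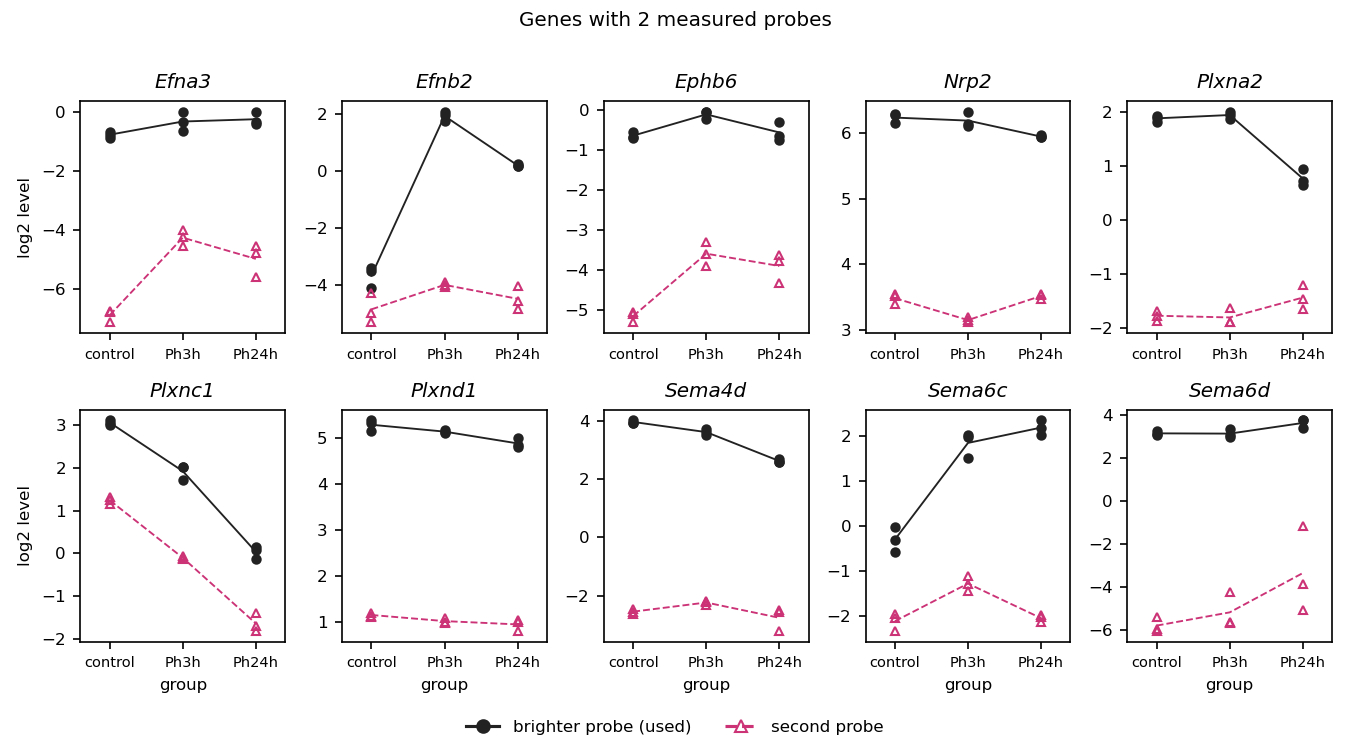
Log2 levels of the 10 members with 2 kept probes, on the 9 arrays by group (points) with lines through the group means. The brighter probe (black) is the one used. Plxnc1 falls on both probes, while Efnb2, Sema4d, Sema6c, Nrp2 and Plxna2 have second probes (pink) that take another course. The second probes of Efna3 and Ephb6 rise more than the brighter ones.

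Netrins, laminin-related ligands, were near background throughout. Ntn1 was above background on 2 of 3 arrays in control and in Ph3h and on none in Ph24h. Its levels were -3.97, -3.97 and -4.55 in control, -3.27, -3.20 and -4.36 in Ph3h and -3.58, -3.83 and -4.49 in Ph24h, and it was not called at either time (adjusted p = 0.257 and 0.675). Ntn5 was above background on 2 Ph24h arrays and nowhere else, with levels of -2.56, -2.89 and -5.33 there. It was at least 2.75-fold higher than control at 24 h (adjusted p = 0.016), and the call was lost without control replicate 1 or Ph24h replicate 2 (adjusted p = 0.0541 and 0.0524), with quantile normalization (0.0522) and with the authors' value table (0.0511). Ntn3 was not called, and Ntn4 was dim on all arrays.

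Unc5b, a netrin receptor that macrophages also express, had the largest rise from 3 h to 24 h among the members. Its levels were 0.48, 0.55 and 0.33 in control, -0.52, -0.70 and -0.63 in Ph3h and 2.47, 2.41 and 2.22 in Ph24h. It was 2.10-fold lower at 3 h (-1.07 ± 0.09, adjusted p = 6.69e-05) and 3.78-fold higher at 24 h (1.92 ± 0.09, adjusted p = 2.85e-06), which puts 7.92-fold between the fed groups (2.98 ± 0.09, adjusted p = 1.08e-06). Unc5a, a receptor of the same family, had levels of -1.57, -1.54 and -2.09 in control, -0.69, -0.41 and -0.57 in Ph3h and -2.67, -4.34 and -2.51 in Ph24h. Its 3 h difference was 1.18 ± 0.46 (adjusted p = 0.0641), with no overlap, and it fell by 1.44 at 24 h (adjusted p = 0.0272). The 24 h call was lost without control replicate 1 or 2 (adjusted p = 0.0751 and 0.0765), with the replicate block (0.0524) and with only the groups compared in the fit (0.064), and the difference was -0.86 without Ph24h replicate 2. Unc5c and Unc5d were dim on all arrays. Unc50, which shares only the start of its name, fell by 0.68 at 3 h (adjusted p = 0.000121) and Plxna4os1 was not called.

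The pairs can be set side by side, since the ligand and receptor of a pair were measured on the same arrays. At 24 h Slit3 and Robo1 were both higher than control, as were Efnb2 (3.87) and Ephb2 (1.53). The unscaled intensities of Ephb2 overlapped control, and the second Efnb2 probe gave 0.37 (adjusted p = 0.305 over all probes). The ligands Slit1 (-1.74) and Efnb1 (-1.24) of the same families were lower at 24 h. Sema7a (-1.09) and Plxnc1 (-3.03) were both lower at 24 h, while at 3 h Sema7a was higher on the scaled values only (1.32) and Plxnc1 lower (-1.14). Sema4d (-1.34) and Plxnb2 (-0.81) were lower at 24 h, and so was Cd72 (-2.06, adjusted p = 1.48e-06), which had been 0.53 higher at 3 h (adjusted p = 0.00161). Sema3f (3.07) and Sema3c (2.48) were higher at 24 h, while Nrp1, Nrp2, Plxna2, Plxna3 and Plxna4 were lower. Second probes gave -0.21 for Sema4d, 0.03 for Nrp2 and 0.34 for Plxna2 at 24 h, none of them called over all probes. Plxna1 was higher on the scaled values and below all control arrays before scaling. Of the other netrin receptors, Neo1 rose by 1.00 in Ph3h (adjusted p = 7.58e-05) and by 1.54 in Ph24h (adjusted p = 6.83e-06), and Dcc was -0.23 at 3 h (adjusted p = 0.365) and -0.57 at 24 h (adjusted p = 0.0368).

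Signaling genes and co-receptors of these pathways that the name rule does not cover were read from a list of 84, of which 77 were tested. At 3 h, 32 were higher and 17 lower, with a median difference of 0.18, beside the 27.9% and 25.9% of all genes given above. At 24 h, 26 were higher and 28 lower, with a median of -0.02, beside 29.9% and 33.2% of all genes. Of the 20 semaphorin signaling genes, 7 rose and 7 fell at each time. Crmp1, a cytosolic relay of Sema3a known from neurons, was dim in control and rose by at least 223-fold in Ph3h and 362-fold in Ph24h, with adjusted p-values of 2.73e-08 and 1.23e-08. Farp1, a guanine exchange factor that binds plexins, was above background on 1 control array and rose by 4.09 and 4.98 (adjusted p = 3.01e-05 and 8.78e-06). Dpysl2, a relative of Crmp1, rose by 1.27 and 0.86.

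Of the 15 Eph signaling genes tested, 4 rose and 4 fell at 3 h, and 5 rose and 6 fell at 24 h. Over all genes the shares higher and lower were 27.9% and 25.9% at 3 h, and 29.9% and 33.2% at 24 h. Chn1, a Rac GTPase-activating protein downstream of Epha4, was dim in control and rose by at least 5.36-fold in Ph3h and 18.3-fold in Ph24h, with adjusted p-values of 1.67e-06 and 2.15e-07, and its relative Chn2 was dim in Ph24h, a fall of at least 4.80-fold (adjusted p = 5.68e-05). Of the 15 netrin and Slit signaling genes tested, 7 rose and 2 fell at 3 h, and 5 rose and 6 fell at 24 h. Ablim3, an actin-binding protein, rose by 3.75 and 4.21, Srgap2, a GTPase-activating protein that binds Robo receptors, was higher in Ph3h (0.29) but lower in Ph24h (-1.05), and Fyn, a kinase of netrin signaling, fell by 1.64 at 24 h.

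Of the 13 actin effectors, 6 rose and 2 fell at 3 h, against 27.9% and 25.9% of all genes. At 24 h, 4 rose and 6 fell, against 29.9% and 33.2% of all genes. The GTPase Rhoa rose by 0.91 at 24 h (adjusted p = 2.62e-05). Pak1, a kinase that Rac and Cdc42 activate, was higher in Ph3h (1.28) but lower in Ph24h (-0.96), and Pak3, its neuronal relative, was dim in control and at least 19.4-fold higher at 3 h and 44.6-fold at 24 h.

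Of the 29 members called at 3 h, 6 were dim in 1 of the groups compared and 1, Sema3a, in both, and at 24 h 10 of the 40 called were dim in 1 group. Counted only over members well above background on every array of both groups, 11 of 35 were higher and 10 lower at 3 h, against 31.8% and 31.0% of all genes so detected. At 24 h, 13 of 31 were higher and 12 lower, against 31.5% and 41.6%. Genes just inside the detection threshold were the 5 seen on 1 array, at intensities of 14.6 to 20.6 there, and the 15 genes just outside it reached at most 4.01 to 15.0 on any array.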

How the data were processed

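Labeled RNA of 9 samples (control, Ph3h and Ph24h, n = 3 each) was hybridized to one-color Agilent arrays on 2 slides, replicates 1 and 2 of each group on slide 1 and replicate 3 on slide 2. The authors deposited scanner intensity values, made with Agilent Feature Extraction 10.7.3.1 (background-subtracted, probe coordinates on mm9), and a table of log2 values centered per probe, with no scaling between arrays stated. The log2 table served as an alternative only.

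Here, log2 of the processed intensity minus the 75th percentile of each array's non-control probes was taken, spots with outlier flags were left out, spots of a probe were averaged, and probes were kept if well above background on any of the 9 arrays, which left 34385 probes of 24102 genes. The brightest probe stood for a gene. Group means were fitted in limma 3.58.1 (R 4.3.3) over all 9 arrays, and p-values were adjusted by Benjamini-Hochberg over all genes at 0.05. With 3 times, the methods' quadratic regression on time has the same fitted means, but its selection of probes by goodness of fit was not applied. The p-values measure the spread between these 3 samples a group. Fits were tested on simulated data. Members called against control with a log2 difference of at least 1 and no overlap with the control arrays (at most 30) were described singly. So were 25 fixed names, 21 of them tested. Values on every array were given for many of those tested, and ranges or differences for the rest. Other genes are named beside counts and were chosen after their values were seen. The members and lists were chosen with earlier results of these data known. Alternatives were the scaling, background correction, value table, filter, probe choice, replicate number or slide as a block, slide 1 alone, the samples in the fit, and each array left out. Stretches of probe sequence are from the deposited files. All probes used for the 56 members lie on the chromosome that RefSeq gives for the gene.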

Additional observations from a re-analysis of the deposited data

Results flagged for a closer look

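Among the 34 members that differed between Ph24h and Ph3h, 4 had opposite calls against control at the 2 times, and the difference between the times itself was tested in limma. Plxnb3 was higher at 3 h (0.96) and lower at 24 h (-2.22), with -3.18 ± 0.13 (SE) between the times (adjusted p = 2.27e-06). Sema7a was higher at 3 h (1.32) and lower at 24 h (-1.09), with -2.41 ± 0.15 between them (adjusted p = 1.41e-05). Slit1 was higher at 3 h (0.43) and lower at 24 h (-1.74), with -2.17 ± 0.13 between them (adjusted p = 1.20e-05). Unc5b was lower at 3 h (-1.07) and higher at 24 h (1.92), with 2.98 ± 0.09 between them (adjusted p = 1.08e-06). Before scaling, the Ph3h intensities of Plxnb3 and Sema7a overlapped those of control, and those of Slit1 lay below them. Their calls as higher at 3 h thus hold on the scaled values only. Single arrays were not examined for outliers, as each group holds 3.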

How the results depend on the processing

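The members' median log2 differences moved most with the processing. At 3 h the median of 0.26 became -0.023 with quantile normalization, 0.014 with median scaling, -0.028 with normexp correction, -0.020 with the authors' value table and 0.062 when a probe had to be above background on all 3 arrays of a group. At 24 h the median of 0.28 became -0.056, -0.23, -0.0050 and -0.0020 with the first 4 of these and 0.32 with the mean over a gene's probes. Between the fed groups the median of 0.23 became 0.13 with quantile normalization, -0.031 with median scaling, 0.056 with normexp correction, 0.28 with no filter and 0.16 on slide 1 alone, and median scaling gave 10 members higher in place of 18. Median scaling shifted the median of all genes by -0.25 at 3 h and -0.51 at 24 h, quantile normalization by -0.14 at each, and no filter by 0.28 and 0.46. The share of calls over all genes that were higher was 51.8% and 47.4% as reported, 33.6% and 23.8% with median scaling, and 66.9% and 65.0% with no filter.

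With each array left out in turn, the medians ranged from 0.12 to 0.31 at 3 h, 0.16 to 0.33 at 24 h and 0.19 to 0.30 between the fed groups. The 3 h median was 0.12 and the 24 h median 0.16 without control replicate 1, and the 24 h median was 0.16 without Ph24h replicate 3. Members higher and lower ranged from 14 to 19 and 9 to 12 at 3 h, from 20 to 24 and 16 to 19 at 24 h, and from 14 to 19 and 12 to 16 between the fed groups, and 40 to 46 differed over the 3 groups. Over members above background on every array of both groups, an alternative chosen after seeing the data, 11 were higher at 3 h and 13 at 24 h.

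Deviations of same-numbered arrays correlated between -0.0571 and 0.0413 over all genes tested. This gave no sign of pairing by number, but with 3 arrays a group it cannot exclude that same-numbered arrays shared an experiment. With the replicate block, 19 members were higher and 11 lower at 3 h, 23 and 16 at 24 h, and 15 and 15 between the fed groups. With slide as a block the counts were 20 and 11, 23 and 17, and 18 and 15. On slide 1 alone they were 21 and 9, 22 and 14, and 12 and 12, and slide 2 holds 1 array a group.

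Of the recomputed differences of named members, 1595 kept direction and call, 118 kept direction and lost the call, and 1 reversed: Nrp2 between the fed groups was 0.062 (adjusted p = 0.450) with the mean over its probes. Normexp correction moved 43 of 86 such differences by over 1.5 times, all toward 0, among them those of Slit3, Robo1, Efnb2, Sema3f, Sema3b, Sema3c, Sema4g and Sema7a against control, and median scaling moved 17. On slide 1 alone the calls of Epha2, Nrp1, Nrp2 and Plxnd1 at 24 h and of Sema4d, Epha4 and Plxna3 at 3 h were lost. The causes were not tested. Genes near background are limited by signal, as no fold can be had where both groups are dim.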
